A study of Mus musculus with 10 samples.

Results

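The Tes and caveolin locus is a window of 500 kb on mouse chromosome 6, from 16900000 to 17400000 on the mm8 build, which by its definition holds Tes, Cav2 and Cav1. Its members are the 94 listed peaks and regions that overlap the window, of 49015 in all. They are 15 of 10359 C/EBPβ peaks at 0 h, 51 of 20746 C/EBPβ peaks at 6 h, 16 of 4007 glucocorticoid receptor (GR) peaks at 6 h, and 2 of 4429, 4 of 1629 and 6 of 7845 regions of histone H3 lysine 9 acetylation (H3K9ac) at 0, 24 and 240 h. The lists come from chromatin immunoprecipitation and sequencing (ChIP-seq) of 3T3-L1 cells, an established mouse fibroblast line whose cells turn into fat-storing cells when differentiation is induced. The groups are undifferentiated cells (0 h) and cells at 6 h, 24 h and 240 h (10 days) after induction, all of the same line, with no genetic change named. Each factor and time is 1 library, so no value has a replicate error, and the inducing agents are not named in the labels. GR was precipitated with antibodies from 2 makers. The window was selected on measured values, since part of it was among the fullest stretches of C/EBPβ 6 h peaks. Its count in that list is therefore a description and carries no test.

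Caveolae are small flask-shaped pits of the plasma membrane and are abundant in fat cells. Cav1 encodes caveolin-1, the main structural protein of caveolae outside muscle, and Cav2 encodes caveolin-2, which assembles with caveolin-1. Tes encodes testin, a LIM-domain protein found at focal adhesions and along actin stress fibres. C/EBPβ is a basic leucine zipper transcription factor that is induced early in adipocyte differentiation. GR is the nuclear receptor of glucocorticoids, hormones that are part of the usual mixtures for inducing this differentiation. H3K9ac marks active regulatory DNA, and the deposited H3K9ac lists leave out transcription start sites. Per the labels, each of these lists holds only regions with more acetylation at its time than at another of the times.

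In the RefSeq gene table (GRCm38.p6) the protein-coding genes stand in the order Tfec, Tes, Cav2, Cav1, Met along the chromosome. Between Tes and Cav2 that table has 3 long noncoding RNA genes, Gm4876, D830026I12Rik and Gm52892, and none between Cav2 and Cav1. The peak lists are on mm8 and name no gene, and no mm8 annotation was used here. Peaks are therefore placed by coordinate, and none is assigned to an exon, intron or promoter of these genes. The DNA of the peaks themselves was not analysed here. The sequences that could be shown are those before the RefSeq starts of the member genes, and they are shown to make the start regions concrete, with no claim that a listed peak lies there. All 3 genes matched an entry, with 1 start each for Tes and Cav2 and 2 starts for Cav1, and all lie on the + strand. Each line gives the 250 bases before a start, 5′ to 3′. Capitals mark matches on either strand to TTGCNNAA, a C/EBP site, or TGTTCT, a GR half-site.
Tes: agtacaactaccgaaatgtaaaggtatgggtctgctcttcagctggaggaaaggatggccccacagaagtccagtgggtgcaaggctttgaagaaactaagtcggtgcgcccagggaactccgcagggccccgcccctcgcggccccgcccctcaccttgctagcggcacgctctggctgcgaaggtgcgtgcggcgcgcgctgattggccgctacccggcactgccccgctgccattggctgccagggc
Cav2: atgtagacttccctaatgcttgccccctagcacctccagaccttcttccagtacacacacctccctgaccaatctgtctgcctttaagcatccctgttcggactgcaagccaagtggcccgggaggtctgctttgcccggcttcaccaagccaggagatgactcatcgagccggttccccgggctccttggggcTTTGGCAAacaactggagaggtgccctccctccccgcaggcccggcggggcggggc
Cav1, first start: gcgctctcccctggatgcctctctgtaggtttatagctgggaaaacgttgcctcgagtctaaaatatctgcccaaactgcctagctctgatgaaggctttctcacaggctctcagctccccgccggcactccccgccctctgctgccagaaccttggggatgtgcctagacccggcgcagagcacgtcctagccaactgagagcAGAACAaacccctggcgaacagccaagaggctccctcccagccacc
The Cav2 sequence holds 1 C/EBP match, TTTGGCAA, which begins 56 bases before the start. Of 32851 mouse promoter sequences of the same length, 9.56% held such a match. The first Cav1 sequence holds 1 GR half-site, AGAACA, which begins 46 bases before the start, and 16.1% of promoters held one. The Tes sequence and the second Cav1 sequence held neither. None of the 4 sequences held a full GR site, searched as GNACA, any 3 bases and TGTNC, which 0.387% of promoters held.

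At 6 h the locus was the fullest for both factors among equal windows tiled from its own edges. The genome was tiled into 5214 windows of 500 kb, of which the locus is 1. The locus held 51 C/EBPβ 6 h peaks, against a mean of 3.97 and a median of 2 per window. The next fullest window, on chromosome 2 from 147900000, held 39. The locus held 16 GR peaks, against a mean of 0.766, and 66.3% of windows held none. Placement of the windows mattered for GR. With tiles shifted by 250 kb, a window on chromosome 6 from 115150000 also held 16 GR peaks, with 45 C/EBPβ 6 h peaks, and the only shifted window with 51 C/EBPβ 6 h peaks overlapped the locus, from 17150000. At 0 h the 15 C/EBPβ peaks of the locus were exceeded by 14 windows, the fullest of which held 21, and equalled or exceeded by 0.364% of windows including the locus itself. The number of listed C/EBPβ peaks at 6 h was 3.4-fold that at 0 h in the locus and 2.003-fold over the whole lists. Because the window was selected on its C/EBPβ 6 h peaks, a locus ratio above that of the lists is partly set by the selection. The lists carry no read totals, so a longer list at 6 h and a deeper library cannot be told apart.

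**Figure D1:**
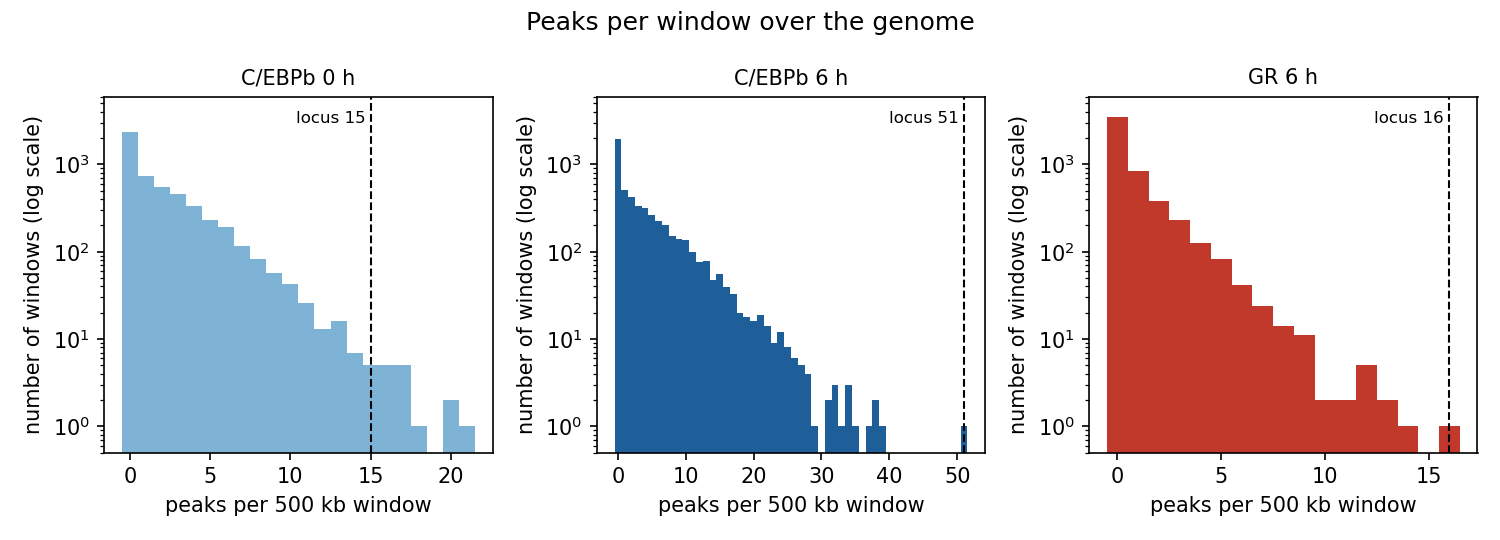
Histograms of the number of peaks per 500 kb window over 5214 windows of the genome, with the number of windows on a log scale, for C/EBPβ at 0 h, C/EBPβ at 6 h and GR at 6 h. The dashed line marks the locus, with 15, 51 and 16 peaks, which is the highest of these windows for both 6 h lists and lies inside the upper tail at 0 h.

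Listed H3K9ac regions were less concentrated in the locus. Their counts are of regions with more acetylation at a time than at another, away from start sites, and not of all acetylation. The 4 H3K9ac regions of 24 h compare with a mean of 0.311 per window, and 1.67% of windows held as many or more. The 6 regions of 240 h compare with a mean of 1.51, and 9.24% of windows held as many or more. The 2 regions of 0 h compare with a mean of 0.847, and 16.6% of windows held as many or more. The highest window counts were 35 at 0 h, 14 at 24 h and 37 at 240 h, all outside the locus. The locus was 1 of 256 windows (4.91%) with at least 1 entry from each of the 6 lists.

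The other 9 of the 10 windows fullest in C/EBPβ 6 h peaks give a closer comparison. They held 33 to 39 C/EBPβ 6 h peaks, 10 to 20 at 0 h (median 14) and 4 to 12 GR peaks (median 9). The locus, with 15 and 16, thus had a C/EBPβ count at 0 h within their range and a GR count above it. The GR difference depended on where the tiles began. With tiles shifted by 250 kb, the chromosome 6 window from 115150000, with 45 C/EBPβ 6 h peaks, also held 16 GR peaks. The shifted window from 17150000, which overlaps the locus and has 51 C/EBPβ 6 h peaks, held 12. Of these 10 windows, 1 had more H3K9ac 24 h regions than the locus, the window on chromosome 17 from 79400000 with 12. For regions of 0 h, 6 of the 10 had more than the locus, and for those of 240 h, 1 did. The fourth fullest window was the neighbour of the locus from 17400000 to 17900000, with 38 C/EBPβ 6 h peaks, 7 GR peaks and 12 C/EBPβ 0 h peaks. The window before the locus, from 16400000 to 16900000, held 1 C/EBPβ 6 h peak and no entry of any other list. Dense binding thus began inside the window and ran on past its far edge.

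Around the edges of the window the nearest C/EBPβ 6 h peaks were chr6:16680874-16681018 (height 12), 219.0 kb before it, and chr6:17409559-17410120 (height 39), 9.6 kb after it. The first and last inside were chr6:16978835-16979146 (height 18) and chr6:17359706-17360142 (height 60). The last GR peak before the window lay 1168.6 kb away. Peak height is the authors' whole-number read signal, and its lowest listed value is 12 in each factor list.

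Binding was spread over all but the first part of the window. In its 5 stretches of 100 kb, from the first to the last, there were 1, 18, 12, 13 and 7 C/EBPβ 6 h peaks. The same stretches held 1, 5, 5, 2 and 2 C/EBPβ peaks at 0 h. GR had 0, 7, 1, 6 and 2 peaks there. The middle stretch, from 17100000 to 17200000, held 12 C/EBPβ 6 h peaks with a single GR peak. A gap of 92.3 kb without any listed GR peak ran from 17122518 to 17214858, and that span held 12 C/EBPβ 6 h peaks of heights 12 to 40 and 4 C/EBPβ 0 h peaks of heights 14 to 42. The median GR gap was 10.1 kb in the locus and 127 kb over the genome, so the gap is long only for the locus. Over the whole list 13.0% of C/EBPβ 6 h peaks overlapped GR. The median gap between neighbouring C/EBPβ 6 h peaks was 4.40 kb in the locus and 28.0 kb over the genome, and 10 of 50 gaps in the locus were under 1 kb. The longest C/EBPβ 6 h gap was 25.9 kb. At 0 h the median gap was 25.8 kb, against 67.8 kb over the genome.

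**Figure D2:**
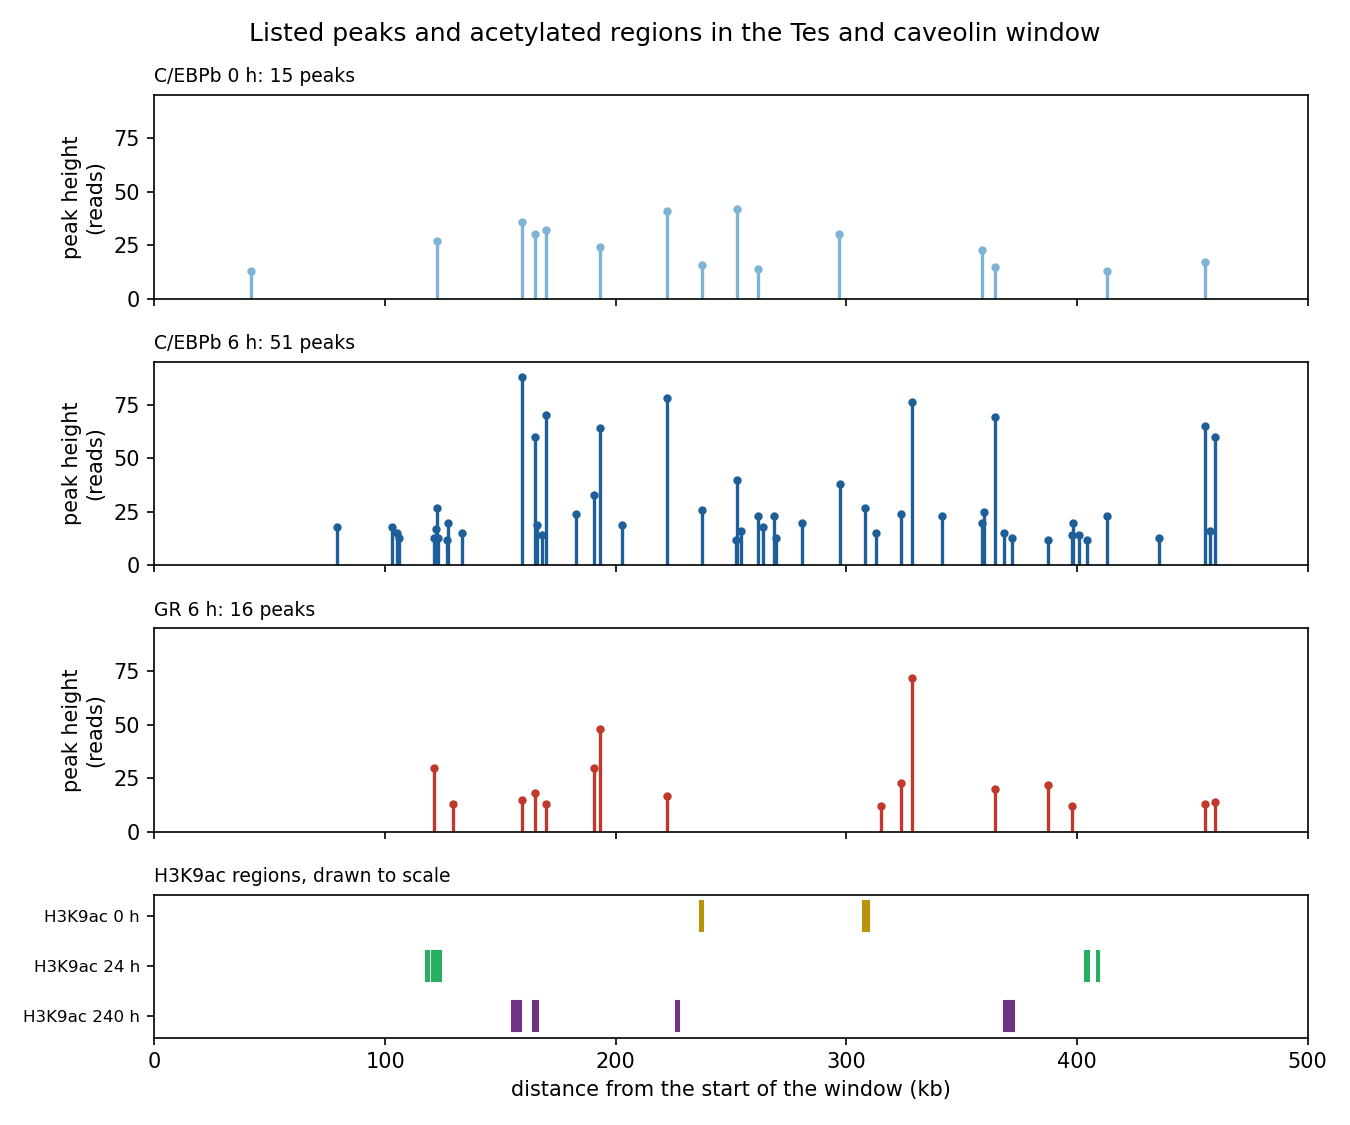
Peak height in reads of every listed C/EBPβ and GR peak, and every listed H3K9ac region, against the distance in kb from the start of the window. The 9 highest C/EBPβ 6 h peaks, at 60 to 88 reads, stand on GR peaks. The H3K9ac regions of the 3 times do not overlap, which was not set against the whole lists (the last 3 regions of 240 h are drawn almost touching). The rule by which regions were listed limits such overlap in advance.

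Nearly every C/EBPβ site of undifferentiated cells was listed again at 6 h, beside many new ones. Of the 15 peaks at 0 h, 14 overlapped a 6 h peak (93.3%, exact 95% binomial interval 68.1 to 99.8%), against 71.3% of the whole 0 h list. The exception was the lone peak of the first stretch, chr6:16941517-16941821, with a height of 13. Of the 51 peaks at 6 h, 16 overlapped a 0 h peak (31.4%, 19.1 to 45.9%), against 35.7% of the whole 6 h list, and 35 were new. The intervals cover counting error only, and neighbouring peaks of a locus are not independent. The count of 16 exceeds 14 because 2 peaks at 0 h each met 2 peaks at 6 h. Among stronger peaks too the new share was close to that of the list, since 45.9% of all C/EBPβ 6 h peaks of height 20 or more were new, against 12 of 26 in the locus.

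The locus held several of the highest C/EBPβ 6 h peaks of the genome. In the locus 9 of 51 C/EBPβ 6 h peaks (17.6%) had a height of 60 or more, a limit chosen after the heights were seen, against 1.67% of the whole list. Ranked by height over the whole 6 h list, the 5 highest stood at places 19, 69, 78, 143 and 153 of 20746. At 0 h no locus peak ranked above place 1082 of 10359, and the highest had a height of 42. The middle of the 6 h range was ordinary, with a median height of 20 in the locus and 18 over the list. Of the 51 peaks, 14 ranked in the strongest 25.0% of the list and 10 in the weakest 25.0%.

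All 9 of the high C/EBPβ 6 h peaks overlapped a GR peak, against 67.9% of the 346 peaks of that height in the genome. Of the 9, 7 had been listed at 0 h, against 88.4% of the 346. The other two were new at 6 h. They are given here in order of position.

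The first 3 lie close together. At chr6:17059236-17059677 C/EBPβ had a height of 36 at 0 h and 88 at 6 h, the highest of the locus, and GR had 15. At chr6:17064636-17065317 the heights were 30 and 60 for C/EBPβ and 18 for GR. At chr6:17069440-17070105 they were 32 and 70 for C/EBPβ and 13 for GR. All 3 sites were higher at 6 h than at 0 h, with GR peaks near the list median of 16.

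Next came chr6:17092897-17093685, where C/EBPβ had 24 at 0 h and 64 at 6 h and GR had 48, the second highest GR peak of the locus. At chr6:17122059-17122456 C/EBPβ had 41 at 0 h, 78 at 6 h and GR had 17. At chr6:17228407-17228890 no peak was listed at 0 h, while C/EBPβ had 76 and GR 72 at 6 h. That is the highest GR peak of the locus (chr6:17228367-17228819, fold enrichment 26.87) and the C/EBPβ peak with the highest fold enrichment, 31.24. Fold enrichment is the authors' ratio, and the labels do not say over which background.

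Further along, chr6:17263944-17264948 had C/EBPβ heights of 15 and 69 and a GR height of 20. At chr6:17355014-17355878 C/EBPβ had 17 at 0 h and 65 at 6 h, with GR at 13. The last, chr6:17359706-17360142, was not listed at 0 h and had 60 for C/EBPβ and 14 for GR at 6 h. GR was therefore listed at every high C/EBPβ site, at heights from 13 to 72.

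Height comparisons between times are limited because any scaling of the libraries is not given, so the locus was read against all sites listed at both times. At the 14 locus sites the ratio of 6 h to 0 h height had a median of 1.836 and a range of 0.87 to 4.6. Over all 7385 such sites the median was 1.083 and the middle 50% ran from 0.786 to 1.538. In the locus 11 of 14 sites were higher at 6 h, 1 was equal and 2 were lower, against 54.7% higher over the genome, and 10 of 14 lay above the genome's upper quartile. The 2 lower sites were chr6:17152170-17152610, the highest peak of the locus at 0 h, with 42 then and 40 at 6 h, and chr6:17258772-17258981, with 23 and 20. The equal site, chr6:17022346-17022646, had 27 at both times. Another of the 5 highest 0 h peaks, chr6:17196892-17197189, had 30 at 0 h and 38 at 6 h, also without GR.

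By height, the sites with GR had the highest ratios, and by fold enrichment the classes overlapped. At the 7 shared sites with GR the ratio ran from 1.902 to 4.6 (median 2.444), and at the 7 without GR from 0.87 to 1.769 (median 1.267), so the ranges of the height ratio did not overlap. By fold enrichment, an alternative added after the data were seen, the ratio ran from 1.514 to 3.02 with GR (median 1.937) and from 0.827 to 1.795 without (median 0.964). The highest site without GR, chr6:17312920-17313148, then stood above 3 of the 7 with GR. Over the genome the median height ratios were 1.583 for 1068 shared sites with GR and 1.038 for 6317 without. Heights at 0 h overlapped between the locus classes, at 15 to 41 with GR and 13 to 42 without. This split was chosen with the heights known, and each height is from 1 library.

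**Figure D3:**
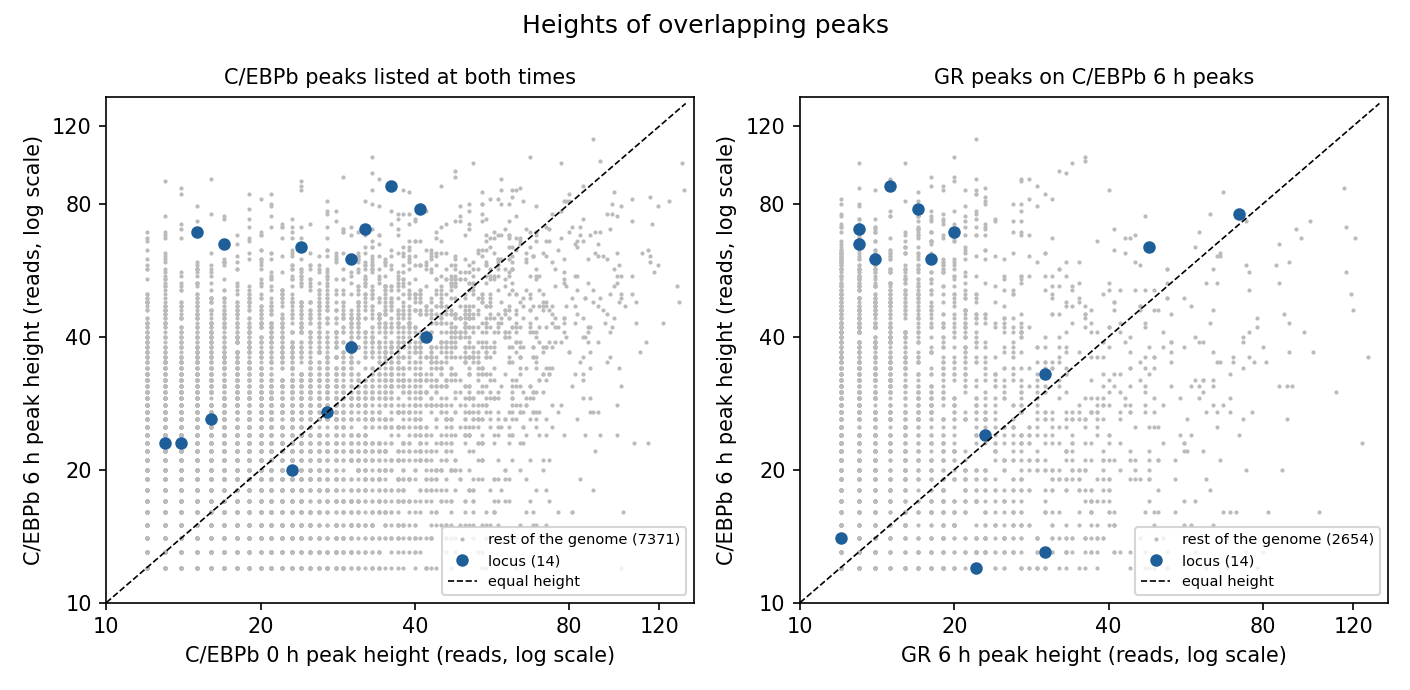
Heights in reads, on log axes, of C/EBPβ peaks listed at both times (left, 0 h against 6 h) and of GR peaks lying on C/EBPβ at 6 h (right), with the locus in blue, the rest of the genome in grey and a dashed line of equal height. In the left panel 11 of 14 locus sites lie above the line (54.7% of all sites), and in the right panel 12 of 14 do (68.0% of all sites).

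Divided by both overlaps, the 51 C/EBPβ 6 h peaks fell into 4 classes. The 7 peaks listed at 0 h and shared with GR had heights of 60 to 88 (median 69). The class holds 13.7% of the locus peaks and 5.09% of the whole list, where its median height was 42. The 9 listed at 0 h without GR (17.6% against 30.6%) had 12 to 40 (median 23), and the list median of that class was 22. The 7 new peaks with GR (13.7% against 7.95%) ran from 12 to 76 (median 24). The 28 new peaks without GR (54.9% against 56.4%) ran from 12 to 27 (median 16). No peak of the first class was below 60 and none of the last above 27. Of all C/EBPβ 6 h peaks listed at 0 h and shared with GR, 18.9% reached a height of 60.

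**Figure D4:**
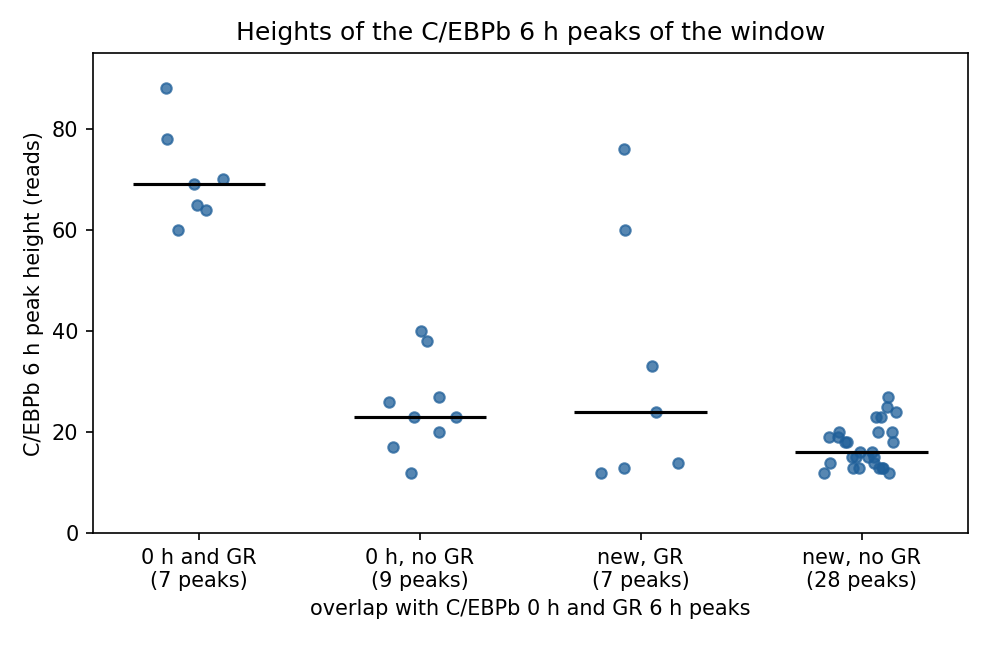
Height in reads of each of the 51 C/EBPβ 6 h peaks of the locus, by overlap with the C/EBPβ 0 h and GR lists, with a line at the median of each class (69, 23, 24 and 16). The 7 peaks with both overlaps sit at 60 to 88, above every peak without GR, and sideways scatter within a class has no meaning.

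GR lay mostly on C/EBPβ sites. Of its 16 GR peaks, 14 shared a site with C/EBPβ at 6 h (87.5%, 61.7 to 98.4%), against 66.6% of all GR peaks. Conversely, 14 of 51 C/EBPβ 6 h peaks overlapped GR (27.5%, 15.9 to 41.7%), against 13.0% of the whole list. C/EBPβ peaks of 0 h lay under 7 of the 16 (43.8%, 19.8 to 70.1%), against 26.2%. In turn 7 of the 15 C/EBPβ 0 h peaks lay on a GR peak of 6 h (46.7%, 21.3 to 73.4%), against 10.3% of that list. The whole-list values of 66.6% and 26.2% lie within the locus intervals, and those of 13.0% and 10.3% lie below them. That is a description and no test, since the intervals cover counting error only and neighbouring peaks are not independent. The 14 of 16 and 14 of 51 are also the same sites counted from either list.

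Most GR peaks of the locus were of ordinary height. They ran from 12 to 72 with a median of 17.5, against a median of 16 over the list, and 4 of 16 ranked in its strongest 25.0%. Those 4 were the peaks of 72 and 48 already given and 2 peaks of height 30, at chr6:17020968-17021442 and chr6:17090695-17090897. The first of these lay on a weak C/EBPβ 6 h peak of height 13, and the other on one of height 33, and neither place had a C/EBPβ peak at 0 h.

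The remaining GR peaks on new C/EBPβ sites were chr6:17223419-17223962 (GR 23, C/EBPβ 24), chr6:17287502-17287704 (GR 22, C/EBPβ 12) and chr6:17297767-17297974 (GR 12, C/EBPβ 14). The 2 GR peaks without C/EBPβ at 6 h were low, chr6:17029209-17029516 at 13 and chr6:17214858-17215339 at 12. C/EBPβ exceeded GR at 12 of 14 shared sites, against 68.0% of 2668 shared sites over the genome. The locus ratios ran from 0.433 to 5.867 with a median of 2.333, against a genome median of 1.529. They were split, since 7 of 14 lay above that genome median and the same 7 above its upper quartile of 2.588. The highest C/EBPβ peak, of 88, carried a GR peak of 15. The libraries were not scaled to each other here, so a ratio above 1 does not show that more C/EBPβ than GR was bound.

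Counted as distinct places, overlapping peaks of the 3 factor lists made 52 sites in the locus and 24918 in the genome. Sites with C/EBPβ at both times and GR numbered 7, or 13.5% of the locus sites, against 4.20% of all sites. Sites with C/EBPβ at 6 h alone numbered 28 (53.8% against 47.0%), and those with C/EBPβ and GR at 6 h numbered 7 (13.5% against 6.43%). Sites with C/EBPβ at both times and no GR also numbered 7 (13.5% against 25.2%). The rest were 1 site of C/EBPβ at 0 h alone (1.92% against 11.9%) and 2 of GR alone (3.85% against 5.31%). No locus site had C/EBPβ at 0 h with GR and without C/EBPβ at 6 h, against 0.0321%.

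H3K9ac regions of the 3 times did not overlap one another, and those of 240 h lay on both sides of those of 0 h, the nearest of them 8.8 kb apart. Per the labels, a list holds only regions with more acetylation at its time than at another of the times, away from transcription start sites. An absence therefore does not show that acetylation was lacking. That rule also limits in advance how far regions of different times can overlap. How often they overlap over the whole lists was not counted here. The lack of overlap is therefore not shown to be particular to the locus. Average read count is the authors' whole-number signal for a region, with a list median of 11 at 0 h, 9 at 24 h and 11 at 240 h. The false discovery rates (FDR) are also the authors'.

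The 2 regions of undifferentiated cells lay in the middle of the window. They were chr6:17136350-17137750, with an average read count of 11, and chr6:17207350-17210000, with 10, both with an FDR of 0. The first held a C/EBPβ peak at both times, of height 16 and then 26. The second held a C/EBPβ peak at 6 h alone, of height 27. No GR peak lay within 1 kb of either, and the nearest were 13.83 and 4.86 kb away. Neither region ranked in the strongest 25.0% of its list.

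The 4 regions of 24 h lay in 2 pairs, with C/EBPβ 6 h peaks before, between and after them. The first pair was chr6:17017600-17019000, with a read count of 9, and chr6:17020200-17024500, with 13. The latter is 4300 bp wide and ranked at place 33 of 1629 in the 24 h list. It held 4 C/EBPβ 6 h peaks of heights 13 to 27, the C/EBPβ 0 h peak of height 27 and the GR peak of height 30. The second pair was chr6:17303650-17305150 with 10, which held a C/EBPβ 6 h peak of height 12, and chr6:17308700-17309750 with 9, which held none. Their FDR values were 4.11e-07, 0, 4.11e-07 and 1.32e-06 in order of position.

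The 6 regions of adipocytes at 240 h lay in 3 places. The first was chr6:17055150-17059000, with a read count of 13, and chr6:17064200-17066450, with 16, the highest of the locus. These adjoin the first group of high C/EBPβ sites. The peak of 88 began 0.24 kb after the former, and the peak of 60 lay inside the latter with its GR peak of 18. The second place was chr6:17126050-17127600 with 12, 3.59 kb from the C/EBPβ peak of 78. The last was a run of 3 regions, chr6:17268550-17269750 with 14, chr6:17270300-17271350 with 10 and chr6:17271750-17272750 with 9, parted by 0.6 and 0.4 kb. It began 3.52 kb after the GR peak at the C/EBPβ site of height 69. Their FDR values were 0 for the first 4 by position and 2.33e-05 for the last 2.

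At a distance under 1 kb from C/EBPβ 6 h peaks were 2 of 2 regions of 0 h, 2 of 4 of 24 h and 5 of 6 of 240 h, against 24.1%, 34.9% and 12.6% of the whole lists. For GR the counts were 0 of 2, 1 of 4 and 2 of 6, against 3.93%, 21.2% and 2.31%. For C/EBPβ at 0 h they were 1 of 2, 1 of 4 and 2 of 6, against 17.9%, 11.6% and 7.84%. In a window this full of C/EBPβ peaks a region is often near one, and that part in these counts was not tested. The run of 3 regions is counted 3 times for C/EBPβ at 6 h, next to peaks of heights 13 and 15.

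Most factor peaks of the locus, like most of the whole lists, were not beside a listed H3K9ac region. Within 1 kb of a 24 h region lay 5 of 51 C/EBPβ 6 h peaks (9.80%, against 3.11% of the list) and 1 of 16 GR peaks (6.25%, against 8.61%). Within 1 kb of a 240 h region lay 5 of 51 C/EBPβ 6 h peaks (9.80%, against 4.98%) and 2 of 16 GR peaks (12.5%, against 4.44%). Near 0 h regions the counts were 2 of 51 (3.92%, against 5.68%) and 0 of 16. For a count of 0 among 16 peaks the exact 95% upper bound is 20.6%, which includes the list's 4.27%. Of the 15 C/EBPβ 0 h peaks, 1 lay within 1 kb of a 0 h region (6.67%, against 7.79%), 1 of a 24 h region (6.67%, against 1.80%) and 2 of a 240 h region (13.3%, against 5.83%). Of the 9 high C/EBPβ 6 h peaks, 2 lay within 1 kb of a listed region, both of 240 h. The share among all peaks of that height was not counted, so 2 of 9 cannot be called many or few. The strongest GR site of the locus, with heights of 76 and 72, had none within 10 kb.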

How the data were processed

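Per the labels' protocols, 36 bp reads were mapped to mm8 with ELAND allowing 2 mismatches, and each start coordinate counted once among uniquely placed reads. Repeats thus stay uncovered, and the height a peak can reach is limited, which was not measured here. No label names the program that called peaks or its settings, and the 4 input libraries were not used here. The authors deposited, for each C/EBPβ and GR peak, a fold enrichment (a ratio) and a peak height (a signal), and, for each H3K9ac region, an FDR (used as a q-value) and an average read count (a signal). Depth is unknown, and with 1 library per group no test across libraries was made.

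Coordinates are as deposited. Every entry overlapping the window by 1 bp or more was taken with Python 3.11.15, numpy 2.4.6, pandas 2.3.3 and scipy 1.17.1, and plotted with matplotlib 3.10.9. Counts were set against complete 500 kb tiles up to the highest listed coordinate of each chromosome. Lists were compared by overlap of 1 bp or more, and H3K9ac regions by a gap under 1 kb. Ranks used height, then fold enrichment, or read count, then FDR, and tied entries kept list order. A height ratio used the highest overlapping partner. The interval code was checked on simulated lists. Entries given singly are, by rule, all GR peaks and H3K9ac regions and the 10 highest C/EBPβ 6 h and 5 highest C/EBPβ 0 h peaks; others are given where a comparison turns on them. The window, rules and alternatives were chosen with earlier results of these data known. Other caveola genes were not analysed here, since they need positions on mm8.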

Additional observations from a re-analysis of the deposited data

How the results depend on the processing

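No paired analysis was possible because each group is 1 library. Of 85 alternative values, 2 of them added after the data were seen, 58 stayed within the interval of the reported value or, for counts, within 1.5 times of it, and 27 moved. Leaving out chromosomes X and Y, or dropping windows without any entry, removed only other windows. The locus thus stayed the fullest for both 6 h lists by construction, which tests nothing. With windows shifted by 250 kb, 1 window reached its 51 C/EBPβ 6 h peaks, which overlaps it, and 1 window elsewhere on chromosome 6 reached its 16 GR peaks. In a further alternative, the 100 kb fullest in C/EBPβ 6 h peaks was removed from every window, for all lists alike. The locus then kept 33 C/EBPβ 6 h peaks, the highest count of all windows, and 9 GR peaks, against a highest count of 11. With the stronger entries of each list, 0.0767% of windows held as many GR peaks as the locus or more, and no other window as many C/EBPβ 6 h peaks. The window was selected on C/EBPβ 6 h peaks, so its place in that list under these changes tests nothing either.

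By construction, keeping the stronger entries left 9 C/EBPβ peaks at 0 h, 31 at 6 h, 9 GR peaks and 1 H3K9ac 0 h region, and 100% of the C/EBPβ 0 h peaks then overlapped a 6 h peak. The percent of windows with as many H3K9ac regions of 0, 24 and 240 h as the locus or more was 24.7, 2.49 and 13.8 over windows with any entry. It was 20.5, 0.652 and 6.98 with the stronger entries, and 11.4, 3.20 and 10.6 without the 100 kb fullest in C/EBPβ 6 h peaks. By direct overlap, 1 H3K9ac 240 h region had a C/EBPβ 0 h peak, 2 had a C/EBPβ 6 h peak and 1 had a GR peak. Within 10 kb, 6 had a C/EBPβ 0 h and 6 a GR peak, 4 regions of 24 h had a C/EBPβ peak at 0 h, 4 at 6 h and 3 a GR peak, and 1 region of 0 h had a GR peak. With the stronger factor peaks, 0 regions of 0 h had a C/EBPβ 0 h peak, 1 region of 24 h and 2 of 240 h had a C/EBPβ 6 h peak, and 1 of 240 h had a GR peak. For all of these the cause was not tested beyond the change in entries or distance itself. Whole-list shares were not counted for direct overlap, for 10 kb or for the stronger factor peaks. With a median gap of 4.40 kb between C/EBPβ 6 h peaks of the locus, a region there is readily within 10 kb of one. The 10 kb counts therefore do not show an association. Measured by fold enrichment, the median ratio of C/EBPβ at 6 h to 0 h over the 14 shared sites was 1.598, against 1.836 for height.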
